A study of Mus musculus with 3 samples.

Results

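The genes of fibroblast growth factor (FGF) signaling were examined in control and NUP153-depleted mouse ES cells by RNA-Seq. Members were taken by gene symbol alone, as every numbered Fgf gene, Fgfr1 to Fgfr4, the Sprouty genes Spry1 to Spry4, the Spred genes Spred1 to Spred3, Dusp6, Etv4 and Etv5. This gave 36 of the 24421 genes in the deposited counts, made up of 22 FGF genes, 4 receptor genes and 10 genes of negative feedback or transcriptional output. The cells were the female EL16.7 line, labelled wild type and of an F2 strain from 129S1/CastEiJ and 129S1, kept undifferentiated in LIF and 20% serum on a layer of γ-irradiated fibroblasts from DR4 mice. All 3 cultures were infected with lentivirus and selected with puromycin at 2 μg/ml for 2 days. They differed in the shRNA, which was a scramble sequence in control and either of a pair of Nup153 shRNAs in NUP153 KD-1 and NUP153 KD-2. Each culture gave 1 library, so no value below has a biological replicate. The feeder layer was part of each culture, and total RNA after ribosomal RNA depletion therefore could hold RNA of ES cells and of fibroblasts. Both knockdowns are compared to the same control library.

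FGF ligands bind receptor tyrosine kinases on the cell surface together with heparan sulfate, and the receptors signal through the adaptor FRS2, RAS, MEK and ERK. ERK activity induces the ETS factors ETV4 and ETV5, and also inhibitors of the same route, namely the Sprouty and SPRED proteins and the ERK phosphatase DUSP6. Mouse ES cells secrete FGF4, which acts back on them through ERK and prepares them to leave the naive state, while LIF holds them undifferentiated. FGF7 and FGF10 are ligands made by mesenchymal cells, including fibroblasts, and act on the epithelial splice form of FGFR2.

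Promoter sequence is shown for Fgf4 and Fgf7, the most abundant ligand mRNAs of the cultures, which differed in opposite directions between the knockdowns. Each run covers 250 bases before to 50 bases after the RefSeq start in GRCm38.p6, on the plus strand. The Fgf4 window is chr7:144861136-144861435 and the Fgf7 window is chr2:126034408-126034707. Capitals mark a match to GGGCGG, the GC box, in Fgf4, and a match to the core letters of a CTCF motif (CCA, 2 free bases, AG, 2 free bases, GGC) in Fgf7, with both strands searched.
Fgf4: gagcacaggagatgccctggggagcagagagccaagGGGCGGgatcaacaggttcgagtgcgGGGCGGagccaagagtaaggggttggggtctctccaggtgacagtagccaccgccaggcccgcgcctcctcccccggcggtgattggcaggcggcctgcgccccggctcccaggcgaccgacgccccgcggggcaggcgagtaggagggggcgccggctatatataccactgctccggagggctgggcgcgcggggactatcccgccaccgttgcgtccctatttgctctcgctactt
Fgf7: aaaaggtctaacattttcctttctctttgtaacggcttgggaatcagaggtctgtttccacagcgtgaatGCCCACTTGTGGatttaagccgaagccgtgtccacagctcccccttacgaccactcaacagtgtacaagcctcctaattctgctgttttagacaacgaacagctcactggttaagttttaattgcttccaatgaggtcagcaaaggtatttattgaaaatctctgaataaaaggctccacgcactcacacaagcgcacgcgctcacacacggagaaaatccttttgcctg
The Fgf4 window was 69.7% G and C and held 28 CpG and 2 GC boxes. The Fgf7 window was 45.7% G and C and held 11 CpG, no GC box and 1 match to the CTCF core, which is on the minus strand. The median over 32851 RefSeq windows of this length was 52.7% G and C and 7 CpG. A GC box was found in 35.7% of all windows and in 22 of the 34 windows of the members, which belonged to 26 genes. The CTCF core letters were found in 2.43% of all windows, and among the members only in Fgf7. Neither window held the octamer ATGCAAAT, the TATA box TATAAA, the AP-1 letters TGANTCA or the ETS letters CCGGAAG, which were present in 1.74%, 13.6%, 7.81% and 8.86% of all windows. A match is a description of the letters in these windows and was not tested for binding.

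Reads on genes numbered 72344726 for the control library, 85258834 for KD-1 and 69839336 for KD-2. Reads of Nup153, the targeted gene, were 27870, 16451 and 11126 in the same order, which after scaling leaves 50.4% of the control level for KD-1 and 37.1% for KD-2. Markers of pluripotent cells were abundant in each library, and none of the 12 was at 0. Fibroblast markers were also present, and none of the 18 was at 0. The summed level of the fibroblast markers was 232, 117 and 495 RPKM in control, KD-1 and KD-2. RPKM relates the reads of a gene to the length of its joined exons in kilobases and to the reads on all genes of the library. Differences between libraries were taken from reads scaled by upper quartiles instead, so that their sign can differ from that of RPKM where they are small. Scaled reads of the fibroblast list were lower in KD-1 for 18 of 18 genes, of which 11 passed the rule for a call, and higher in KD-2 for 18 of 18 genes, of which 15 passed. Col3a1, Col1a2, Col6a1, Pdgfrb, Dcn, Lum, Postn, Prrx1, Acta2 and Fap were called in both. The summed pluripotent markers were at 3385, 3881 and 2664 RPKM in control, KD-1 and KD-2, of which Dppa5a alone supplied 1665, 2107 and 1249 RPKM. Of the 12 genes, 10 were higher and 2 lower in KD-1, with Utf1 called higher, while 5 were higher and 7 lower in KD-2. There Utf1 was called higher, at 1.17, and Zfp42, Tdgf1 and Dppa4 were called lower. In bulk RNA, fewer cells of a type and less RNA per cell cannot be told apart. A gene was called where its scaled reads differed by more than 1.5-fold and the 95% counting interval of the fold change left out no change. Calls are with upper-quartile scaling where no other scaling is named. Intervals in brackets are on the log2 scale, and cover counting error only, since reads without molecular identifiers are not independent molecules.

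Of the 36 members, 28 averaged at least 10 reads across the libraries. Etv5 and Fgf4 were the most highly expressed members in control, followed by Spred1, Etv4, Spry2, Fgf7, Dusp6 and Spry4. Etv5 was at 79.5 RPKM and Fgf4 at 35.5 RPKM in control, above 95.9% and 90.8% of all genes with a length and a mean of at least 10 reads. The 8 members under this mean were Fgf6, Fgf8, Fgf12, Fgf16, Fgf21, Fgf22, Fgfr4 and Spry3. Fgf6 and Spry3 had 0 reads in all 3 libraries, and Fgf21 had 2, 0 and 2 reads, where a count of 0 allows up to 3 reads. Fgf8, a ligand of the primitive streak, had 10, 6 and 13 reads in control, KD-1 and KD-2. Fgf12, Fgf16 and Fgf22 had 5 to 12 reads in each library. Fgf20 passed through KD-1 alone, with 8, 18 and 7 reads. No difference was detectable at this depth for any of these low genes.

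**Figure D1:**
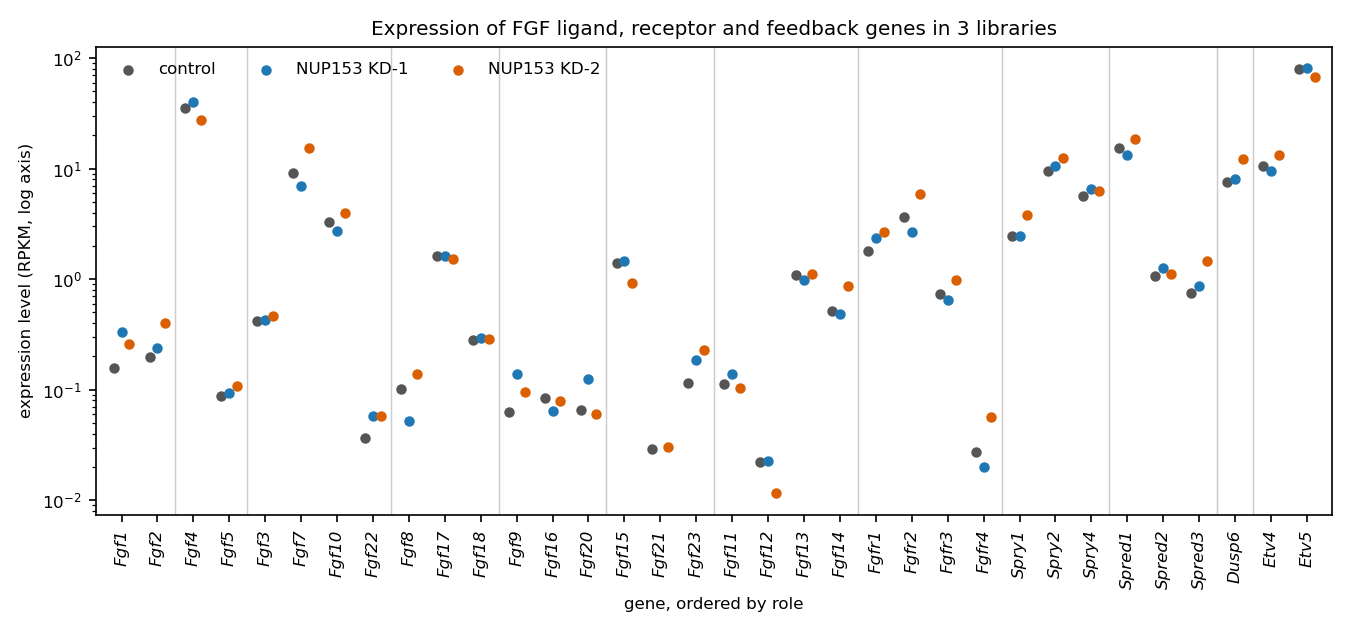
Expression level (RPKM, log axis) of FGF ligand, receptor and feedback genes in 3 libraries, with 1 point per library. Grey lines part the roles, and a level of 0 is not drawn. Fgf6 is left out because it had 0 reads in each library, and Spry3 because it has no length in the annotation. Etv5, Fgf4 and Spred1 stand highest, and most ligand genes lie under 1 RPKM.

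The ligand mRNA of the cultures was mostly Fgf4, with Fgf7 next, and their proportion differed between the knockdowns. Over the summed RPKM of the 18 secreted ligands, Fgf4 made up 67.5%, 73.1% and 53.6% in control, KD-1 and KD-2. Fgf7 made up 17.3%, 12.8% and 29.8% in control, KD-1 and KD-2. The sum itself was 52.7, 55.0 and 51.8 RPKM, so the ligand totals of the libraries lay closer together than the shares. Fgf10 made up 6.31%, 4.94% and 7.60%, Fgf17 3.09%, 2.93% and 2.95%, and Fgf15 2.67%, 2.63% and 1.80% in control, KD-1 and KD-2. The other 13 ligands shared the rest. With the longest transcript as the length, Fgf15 made up 4.09%, 4.06% and 2.71% and Fgf17 2.80%, 2.67% and 2.63%, so their order turned.

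**Figure D2:**
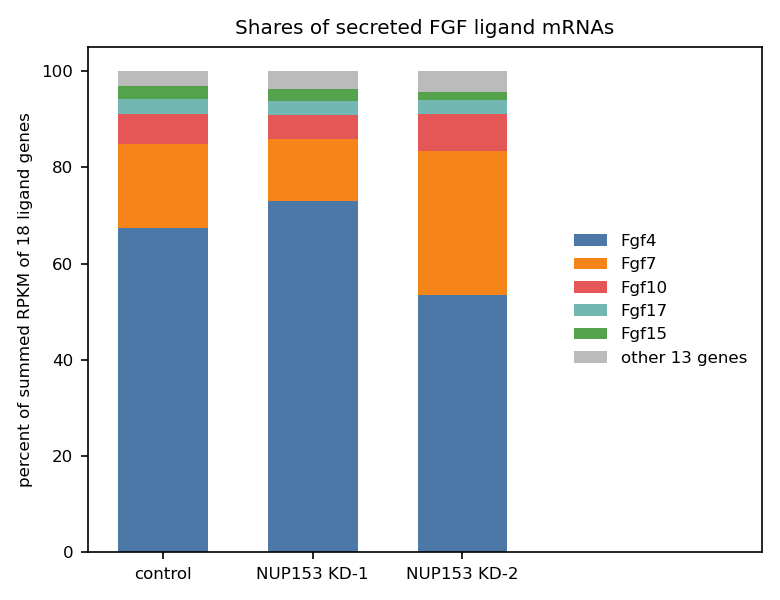
Percent of the summed RPKM of 18 secreted FGF ligand genes held by each of the 5 most abundant genes and by the other 13 together, in 1 bar per library. Fgf4 holds 67.5%, 73.1% and 53.6% of the sum in control, KD-1 and KD-2, and Fgf7 holds 17.3%, 12.8% and 29.8%.

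Fgf4, the autocrine ligand of ES cells, had 8216, 10954 and 6192 reads in control, KD-1 and KD-2. On the log2 scale KD-1 was at 0.19 (0.14 to 0.23) and KD-2 at -0.52 (-0.56 to -0.47) against control, and neither difference passed 1.5-fold. The knockdowns differed from each other by 1.63-fold, with a log2 difference of 0.70 (0.66 to 0.75), which was called. With library totals as the scale it was at 0.54 and with pluripotent markers as the scale at 0.14, and was not called. Fgf4 thus ranked KD-1, control, KD-2, in the same order as the sum of the pluripotent markers but not as each of them, since 5 of 12 were above control in KD-2. The sum differed from control by 0.14 for KD-1 and -0.43 for KD-2 on the log2 scale. Their part in the Fgf4 values was not tested. Fgf4 lies at chr7:144861386-144865245 (GRCm38), between Fgf3, 18037 bases away, and Fgf15, 31286 bases away. Fgf3, which acts in the inner ear and hindbrain, had only 71, 85 and 75 reads, with log2 fold changes of 0.03 and -0.03.

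Fgf5, the ligand that marks the epiblast after exit from the naive state, was near the floor in all 3 libraries with 16, 20 and 19 reads. Its level was 0.0884, 0.0938 and 0.109 RPKM in control, KD-1 and KD-2. The intervals of its log2 fold changes reached from -0.93 to 1.14 in KD-1 and from -0.90 to 1.2 in KD-2, so a difference of 1.5-fold in either direction was not detectable.

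Fgf7, also named keratinocyte growth factor, had 2145, 1943 and 3507 reads in control, KD-1 and KD-2. It was called higher in KD-2, by 1.52-fold with a log2 difference of 0.60 (0.52 to 0.68), and lay just past the 1.5-fold line. In KD-1 its log2 difference from control was -0.37 (-0.46 to -0.28), which was not called. KD-1 was 1.96-fold below KD-2, with a log2 difference of -0.97 (-1.05 to -0.89), which was called. The Fgf7 reads were lowest for KD-1 and highest for KD-2 after scaling, the order of the summed fibroblast markers, which differed from control by -1.0 for KD-1 and 0.93 for KD-2 on the log2 scale. Col3a1, a collagen and the most abundant fibroblast marker, was at 76.9, 30.5 and 166 RPKM. The part of the fibroblasts in the Fgf7 values was not tested. Fgf7 lies at chr2:126034658-126091185 (GRCm38), and its promoter window printed above holds fewer CpG than that of Fgf4.

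Fgf10, a ligand of the limb and lung mesenchyme, had 1106, 1067 and 1266 reads in control, KD-1 and KD-2. Its log2 difference from control was -0.28 (-0.40 to -0.16) for KD-1 and 0.09 (-0.03 to 0.21) for KD-2. It thus ranked as Fgf7 did, with smaller differences that were not called.

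Fgf15, an ileal hormone in the adult and a brain ligand in the embryo, was called lower in KD-2. It had 311, 378 and 199 reads in control, KD-1 and KD-2. The KD-2 value was 1.68-fold below control, with a log2 difference of -0.75 (-1.02 to -0.49), and the KD-1 value was at 0.05 (-0.17 to 0.27). KD-1 stood 1.75-fold above KD-2, which was called. Scaled by the pluripotent markers, Fgf15 was at -0.32 in KD-2 and at 0.24 between the knockdowns, and neither was called. Fgf15 and its neighbor Fgf4 were therefore both below control in KD-2, Fgf4 without passing the fold threshold. Of the other endocrine ligands, Fgf23, a phosphate hormone of bone, had 15, 29 and 29 reads, with log2 differences of 0.72 (-0.22 to 1.73) and 0.84 (-0.10 to 1.85). Its intervals held no change in both knockdowns, but it was called in KD-2 at 1.00 with library totals and also with the pluripotent markers as the scale.

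Fgf1 and Fgf9 were the members called in KD-1, and both had few reads. Fgf1, which binds all FGF receptors, had 62, 155 and 99 reads in control, KD-1 and KD-2. Its level was 0.157, 0.333 and 0.259 RPKM, so that it stayed under 1% of the ligand sum in each library. The log2 difference from control was 1.09 (0.66 to 1.54) in KD-1, which was called, and 0.57 (0.10 to 1.05) in KD-2, a 1.48-fold difference just under the threshold. With TMM normalization the KD-2 value was at 0.61 and was called. Fgf9, a ligand of mesothelium and gonad, had 21, 55 and 31 reads. Its log2 difference was 1.16 (0.41 to 1.96) for KD-1 and 0.45 (-0.39 to 1.33) for KD-2. With 21 reads in control, the Fgf9 intervals were wide, and that of KD-2 held no change. With the pluripotent markers as the scale, Fgf9 was called higher in KD-2 as well. KD-1 and KD-2 differed by 0.71 (0.05 to 1.39), which was called, but at 0.65 with TMM normalization it was not.

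Fgf2, or basic FGF, was called higher in KD-2. It had 97, 139 and 189 reads in control, KD-1 and KD-2, and stayed under 0.4 RPKM. The log2 difference was 0.86 (0.49 to 1.22) in KD-2, or 1.81-fold, and 0.29 (-0.09 to 0.68) in KD-1. Between the knockdowns it was at -0.56 (-0.89 to -0.24), just under the threshold, and was called under each other scaling run, for example at -0.62 with TMM normalization. Exons of Fgf2 overlap those of Nudt6 on the opposite strand over 640 bases, and since the strand counted is not given in the sources used here, reads of this stretch could not be assigned with certainty. Among ligands of the FGF8 group, Fgf17 had 199, 232 and 180 reads and Fgf18 had 24, 30 and 24 reads, and each of their intervals against control held no change.

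The 4 intracellular FGF proteins are not secreted and bind sodium channels or microtubules rather than receptors. Fgf13 was the main one, with 318, 338 and 311 reads and log2 differences of -0.14 in both knockdowns. It made up 62.6%, 60.5% and 53.2% of the summed RPKM of the 4 genes in control, KD-1 and KD-2. Fgf14 had 157, 172 and 251 reads, and its log2 difference was -0.10 (-0.42 to 0.22) for KD-1 and 0.57 (0.28 to 0.87) for KD-2. The 1.48-fold difference in KD-2 was just under the threshold, and with TMM normalization it was called at 0.61. The comparison of KD-1 to KD-2 was called at -0.67 (-0.96 to -0.38). Fgf11 had 25, 36 and 22 reads with intervals that held no change.

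Fgfr2 and Fgfr1 were the receptors of these cultures. Fgfr2 made up 58.8%, 47.2% and 61.2% of the summed receptor RPKM in control, KD-1 and KD-2, and Fgfr1 made up 29.0%, 41.1% and 27.9%. Fgfr3 held 10.3% to 11.7% of the sum and Fgfr4 under 1%. The receptor sum was 6.23, 5.68 and 9.57 RPKM in control, KD-1 and KD-2, and with the longest transcript as the length it was 13.3, 11.9 and 20.6 RPKM. On both lengths it was under the summed level of the ligands.

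Fgfr1, the main receptor for FGF4 in ES cells, had 1292, 1965 and 1842 reads in control, KD-1 and KD-2. It stood above control by 0.38 (0.27 to 0.48) for KD-1 and by 0.40 (0.30 to 0.51) for KD-2 on the log2 scale, or 1.30-fold and 1.32-fold, which was under the threshold for a call. The knockdowns differed from each other by -0.03 (-0.12 to 0.06), while the summed fibroblast markers were at 117 and 495 RPKM in these libraries. Their part in the Fgfr1 values was not tested. With the pluripotent markers as the scale, however, Fgfr1 was at 0.24 in KD-1 and was called at 0.83 in KD-2 and at -0.59 between the knockdowns. Its exons overlap the opposite-strand gene Gm16159 over 164 bases.

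Fgfr2, the receptor of FGF7 and FGF10 and of early extraembryonic lineages, had 2737, 2364 and 4225 reads in control, KD-1 and KD-2. Its log2 difference from control was -0.44 (-0.52 to -0.36) for KD-1 and 0.52 (0.45 to 0.59) for KD-2, and neither was called. In KD-2 it was called at 0.68 with library totals and also with the pluripotent markers as the scale. Between the knockdowns it was 1.94-fold lower in KD-1, at -0.96 (-1.03 to -0.89), which was called. This is close to the difference of Fgf7 between the same libraries, and Fgfr2 also ranked as the fibroblast markers did. Their part in the Fgfr2 values was not tested. The GENCODE model of Fgfr2, from which its length was taken, reaches chr7:133123350, while that of RefSeq stops at 130266808. It shares 314 exon bases with Ctbp2 on the same strand. The gene-level counts do not separate the splice forms of Fgfr2.

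Fgfr3 had 379, 393 and 493 reads in control, KD-1 and KD-2, with log2 differences of -0.18 (-0.38 to 0.03) and 0.27 (0.08 to 0.47). Fgfr4, a receptor of endoderm and liver, had 7, 6 and 14 reads, and its interval reached from -0.51 to 2.44 in KD-2. Neither gene was called with upper-quartile scaling, while Fgfr3 was called between the knockdowns at -0.61 with library totals, and there and in KD-2 with the pluripotent markers as the scale.

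None of the 3 Sprouty genes tested was called with upper-quartile scaling, while Spry1 was called in KD-2 at 0.60 and between the knockdowns at -0.61 with library totals, and Spry1 and Spry2 were called there with the pluripotent markers as the scale. Spry2 led the Sprouty genes with 54.1%, 53.9% and 55.5% of their summed RPKM in control, KD-1 and KD-2, followed by Spry4 and Spry1. Spry2 had 1445, 1884 and 1826 reads, with log2 differences of 0.15 (0.05 to 0.25) for KD-1 and 0.23 (0.13 to 0.33) for KD-2. Spry4 had 1940, 2676 and 2081 reads, with log2 differences of 0.24 (0.15 to 0.32) and -0.01 (-0.10 to 0.08). Spry2 was thus slightly above control in both knockdowns and Spry4 in KD-1. Spry1 had 522, 612 and 765 reads, and was at 0.00 (-0.17 to 0.17) for KD-1 and at 0.44 (0.28 to 0.61) for KD-2.

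Among the SPRED genes, which encode membrane-bound inhibitors of RAF activation, Spred1 held 86.2% to 89.5% of the summed RPKM. Spred1 had 7573, 7734 and 8695 reads, with log2 differences of -0.20 (-0.24 to -0.15) for KD-1 and 0.09 (0.05 to 0.14) for KD-2. Spred3 was called higher in KD-2. It had 334, 460 and 637 reads, with a log2 difference of 0.82 (0.63 to 1.02) in KD-2, or 1.77-fold, and of 0.23 (0.03 to 0.44) in KD-1. Spred3 was also called between the knockdowns, at -0.59 (-0.77 to -0.42) for KD-1 less KD-2. Its exons overlap Ggn on the opposite strand over 202 bases, so these reads are uncertain in the same way as those of Fgf2. Spred2 had 359, 498 and 362 reads and was at 0.24 (0.04 to 0.44) and -0.09 (-0.31 to 0.12).

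Dusp6, the ERK phosphatase, had 1701, 2173 and 2674 reads in control, KD-1 and KD-2. Its log2 difference was 0.12 (0.03 to 0.22) for KD-1 and 0.55 (0.46 to 0.63) for KD-2, a 1.46-fold difference just under the threshold that was called at 0.59 with TMM normalization. Etv5 had 23612, 28288 and 19299 reads, with log2 differences of 0.03 (0.01 to 0.06) and -0.40 (-0.43 to -0.37). Dusp6 and Etv5, both targets of ERK, were therefore on opposite sides of control in KD-2, except with the pluripotent markers as the scale, where Etv5 was at 0.03. The KD-1 value of Etv5 was at -0.03 with DESeq2's size factors. Etv4 had 2350, 2540 and 2849 reads and was at -0.12 (-0.20 to -0.03) for KD-1 and at 0.17 (0.09 to 0.25) for KD-2. Etv5 ranked KD-1, control, KD-2 as Fgf4 did, while Etv4 ranked KD-2, control, KD-1.

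**Figure D3:**
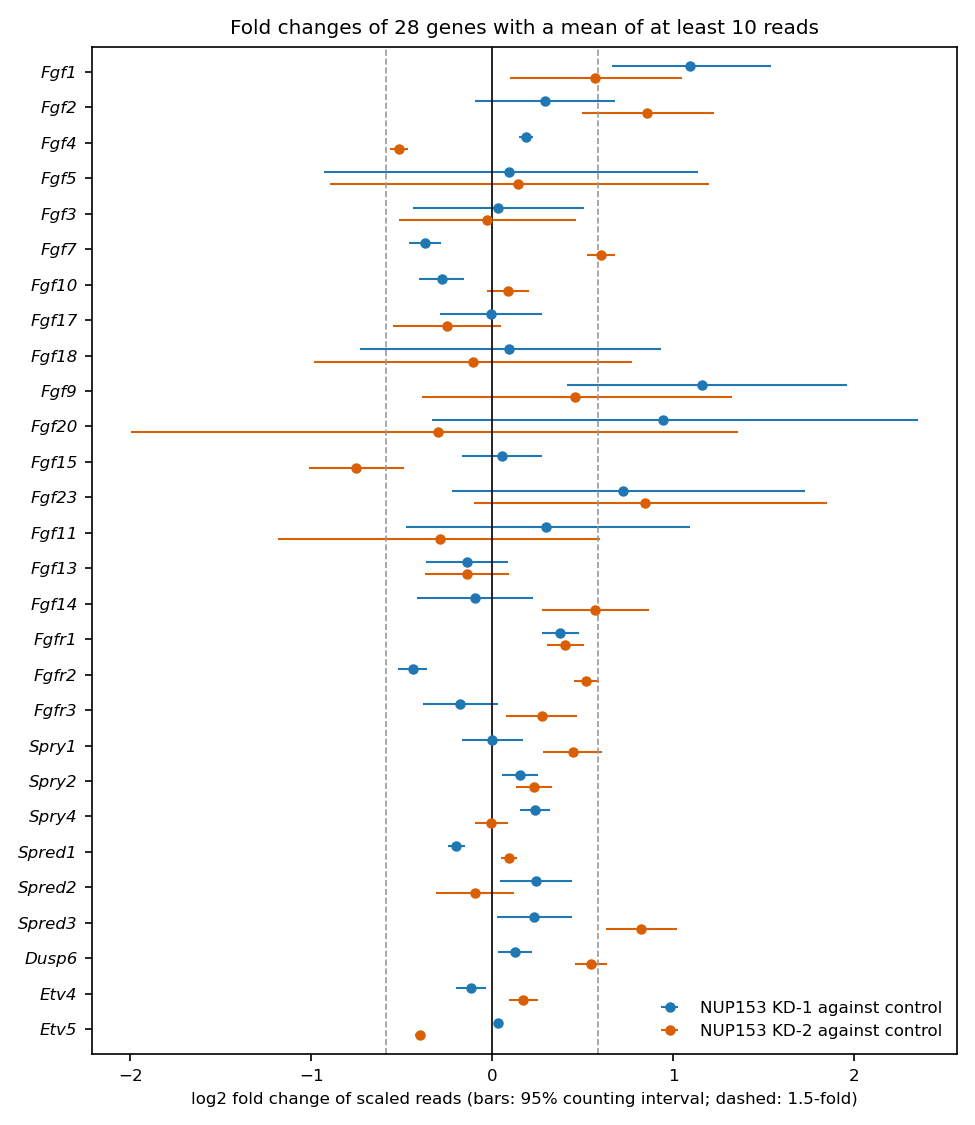
Log2 fold change of scaled reads against control for the 28 members with a mean of at least 10 reads, for KD-1 in blue and KD-2 in orange. Bars are 95% counting intervals and dashed lines mark 1.5-fold. Fgf1 and Fgf9 lie past the upper line in KD-1 with intervals that leave out 0, and Fgf2, Fgf7 and Spred3 do so in KD-2, where Fgf15 lies past the lower line.

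With upper-quartile scaling and the main thresholds the shares of members called lay under those of all genes in each comparison, a difference that was not tested. This did not hold in KD-2 with TMM normalization, upper quartiles of the tested genes alone, library totals or the pluripotent markers as the scale, nor between the knockdowns with the latter pair, where the shares of members were the higher ones. With upper-quartile scaling, members also had the higher share in KD-1 at a fold change above 2, at 7.14% beside 4.17% of all genes. The same held between the knockdowns at a minimum mean of 100 reads, where 6 members and 26.1% of all genes were called. In KD-1, 2 of the 28 members were called, both higher (7.14%), where 11.1% of the 16670 genes tested were called, 6.52% higher and 4.59% lower. In KD-2, 4 of 28 members were called (14.3%), 3 higher and 1 lower, against 23.5% of all genes, 14.9% higher and 8.6% lower. Between KD-1 and KD-2, 7 of 28 were called (25%), namely Fgf4, Fgf9 and Fgf15 as higher in KD-1 and Fgf7, Fgf14, Fgfr2 and Spred3 as lower, against 27.1% of all genes, 12.1% higher and 15.1% lower. The median log2 difference of the members was 0.09 for KD-1 and 0.16 for KD-2, beside 0.02 and -0.02 over all genes. For KD-1 it was 0.03 with DESeq2's size factors and -0.04 with the pluripotent markers as the scale, beside -0.05 and -0.12 over all genes. For KD-2 it was 0.31 with library totals and 0.59 with the pluripotent markers, beside 0.14 and 0.41. With library totals, 9 members were called higher and 1 lower in KD-2, beside 25.1% of all genes called. Of these calls over all genes 84.9% were higher, where upper-quartile scaling gave 63.4%. With the pluripotent markers as the scale, Fgfr3, Spry2 and Etv4 were also among the calls in KD-2, and Fgf10, Spry2, Spred1, Dusp6 and Etv4 among those between the knockdowns, beside 36.1% and 38.8% of all genes called. With upper-quartile scaling Fgf1 was at 2.13-fold for KD-1 and 1.48-fold for KD-2.

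The knockdown libraries were then taken as 1 group against control in the quasi-likelihood test of edgeR, in which the spread comes from the difference between both shRNAs, with 1 residual degree of freedom. None of the 28 members passed an FDR of 0.05 or an unadjusted p of 0.05. Over all 16670 genes, 0 passed the FDR (0% called) and 190 had an unadjusted p under 0.05, which is 1.14%. The DESeq2 Wald test called 2 genes, and 80 had an unadjusted p under 0.05, with no member among either. The highest log2 differences of the members in this fit were 0.87 for Fgf1, 0.86 for Fgf9, 0.80 for Fgf23, 0.62 for Fgf2 and 0.58 for Spred3, each with an adjusted p of 1.00 by the quasi-likelihood test. Fgfr1 was at 0.41 with the same adjusted p.

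**Figure D4:**
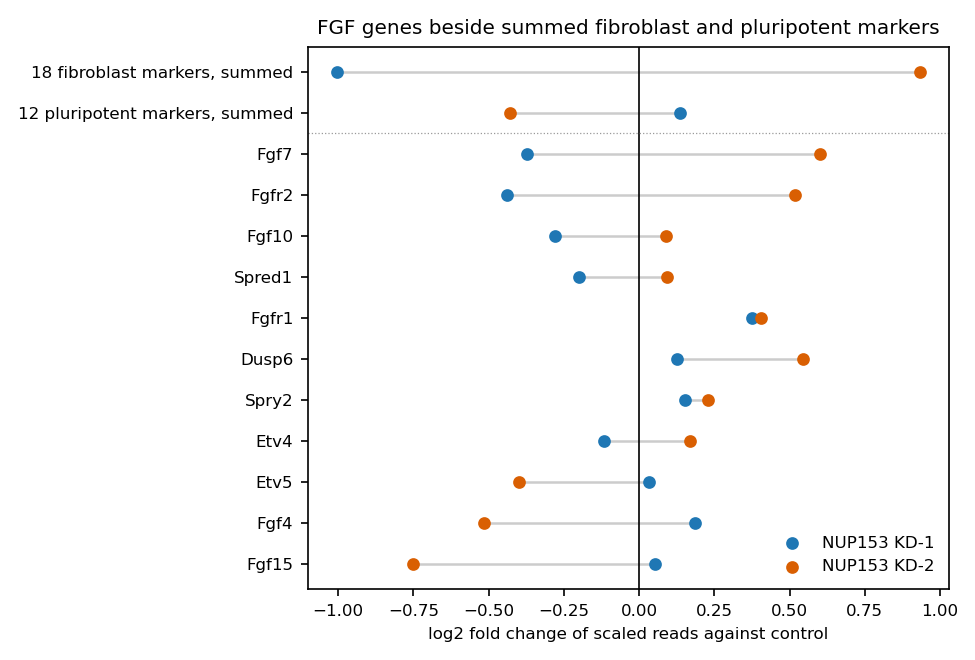
Log2 fold change of scaled reads against control for 11 FGF genes, chosen after their values were seen, beside the summed reads of 18 fibroblast markers and 12 pluripotent markers. Blue points are KD-1 and orange points KD-2. Fgf7 and Fgfr2 lie to the left in KD-1 and to the right in KD-2 as the fibroblast sum does, Fgf4 and Etv5 lie to the right in KD-1 and to the left in KD-2 as the pluripotent sum does, and the points of Fgfr1 nearly coincide on this scale.

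When the members are set beside the markers, the plot of FGF genes and marker sums shows 2 orders of the libraries. Fgf7, Fgfr2, Spred1 and Etv4 were below control in KD-1 and above it in KD-2, with intervals that left out 0 in both. Fgf4 and Etv5 were above control in KD-1 and below it in KD-2, again with intervals that left out 0, although Etv5 changed sides with other scalings as given above. Fgf1, Fgfr1, Spry2, Spred3 and Dusp6 were above control in both knockdowns, with intervals that left out 0. In KD-1 the lower bounds of Spry2, Spred3 and Dusp6 were only 0.05, 0.03 and 0.03. DESeq2's size factors moved the KD-1 values by -0.066 and scaling by pluripotent markers by -0.14. Markers of other cell types that such cultures can hold were detected in every library, and no gene of these lists was at 0. Their summed levels in control, KD-1 and KD-2 were 42.7, 40.7 and 36.8 RPKM for primed epiblast, 11.6, 12 and 10.5 for primitive endoderm, and 17.3, 16.4 and 15.2 for trophoblast. Their most abundant genes were Dnmt3b, Lama1 and Tfap2c, and Lama1 supplied 10.1, 10.1 and 8.28 RPKM of the primitive endoderm sum. Of the 7 primed epiblast markers, 5 were higher and 2 lower in KD-1, with Lef1 called higher at 0.60. In KD-2, 3 of them were higher and 4 lower. Foxd3 at 0.64 and Sox3 at 1.08 (0.00 to 2.25) were called higher there, and Otx2 at -0.71 and Dnmt3b at -0.66 lower. Of the 7 tested primitive endoderm markers, 6 were higher and 1 lower in KD-1, and 4 were higher and 3 lower in KD-2. Gata6 was called higher in KD-2 at 1.08 and Dab2 at 0.64, where the primitive endoderm sum was lower. Gata4 at -0.24, Sox7 at -0.20 and Lama1 at -0.44 were the lower genes there, and none of them was called. Hnf4a was called higher in KD-1 at 0.91. Mesendoderm markers summed to 2.09, 2.77 and 3.57 RPKM, with 2 of the 5 tested genes higher and 3 lower in KD-1, and 4 higher and 1 lower in KD-2. Of these, Eomes and Kdr were called higher in both knockdowns, and Mixl1 was at -0.49 in KD-2. The sum of 88.2, 91.7 and 78.5 RPKM for neural markers was nearly all Tubb3, a tubulin. Of the 4 tested neural markers, 3 were higher and 1 lower in KD-1. Sox1 was called higher there, at 8 reads in control and 24 in KD-1, and Map2 was called lower at -0.84. In KD-2, 1 neural marker was higher and 3 were lower, and none was called. Of the 6 tested trophoblast markers 4 were higher and 2 lower in KD-1, and in KD-2 3 were higher and 3 lower. Cdx2, of that list, was called higher in both knockdowns at 6, 25 and 24 reads, while Tfap2c, its most abundant member, was at -0.36 and -0.43. Utf1, of the pluripotent list, was called higher in both at 127, 240 and 308 reads. The part of these cell types in the values of the members was not tested.

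For the lists that follow, 6.52% of all genes were called higher and 4.59% lower in KD-1, and 14.9% higher and 8.6% lower in KD-2, and no list was tested against them. Of 23 adaptors and kinases, none was called in KD-1 and 1 was in KD-2. The median log2 differences were 0.01 and -0.07. That gene was Nras, a RAS GTPase, at -0.64 (-0.67 to -0.60). Map2k1, which encodes MEK1 and was the most abundant of them in control, was at 36.5, 34.7 and 37.7 RPKM.

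Of 18 coreceptors and binding proteins tested, many of which bind FGF ligands or receptors, 2 were called higher and 2 lower in KD-1, and 9 were called higher and 0 lower in KD-2. The medians were 0.03, or -0.03 with DESeq2's size factors, and 0.59. In KD-2 they included Fgfrl1, a receptor without a kinase domain, at 1.08 (0.96 to 1.19), and the proteoglycans Gpc1 at 1.08 and Hspg2 at 1.01. Sdc2, a syndecan, was called in opposite directions, at -1.71 (-1.79 to -1.64) for KD-1 and 0.69 (0.64 to 0.73) for KD-2. Sdc4, the most abundant, was at 105, 86.9 and 160 RPKM and was not called in either. Of 14 heparan sulfate enzymes, 1 was called higher and 2 lower in KD-1, and 7 higher and 0 lower in KD-2, with medians of -0.01 and 0.47. Sulf1, an extracellular sulfatase that trims heparan sulfate, was at -0.91 for KD-1 and 0.63 for KD-2, and Hs6st2, a sulfotransferase, at -0.67 and 1.03, all called. The summed fibroblast markers had the same signs, at -1.0 and 0.93, and their part in these values was not tested.

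Of 18 further feedback genes and targets of ERK, 1 was called higher and 3 lower in KD-1, and 8 were called higher and 1 lower in KD-2. Their medians were -0.16 and 0.45. The KD-2 calls included Fos at 0.61, Ier3 at 0.89 and Dusp5 at 0.87 as higher and Egr1 at -0.81 as lower, so the immediate early genes did not share a direction. Dusp5, a nuclear ERK phosphatase, was also called in KD-1, at -0.59. Ccnd1, or cyclin D1, the most abundant of the list in control, was at 60.3, 37.5 and 90.3 RPKM and was called lower in KD-1, at -0.68 (-0.71 to -0.64). The summed reads of this list differed from control by -0.22 for KD-1 and 0.34 for KD-2, with the signs of the summed fibroblast markers at -1.0 and 0.93, whose part in these values was not tested.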

How the data were processed

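Gene expression was measured by RNA-Seq (total RNA, Ribo-Zero Gold) in 3 libraries, 1 per condition, grouped by the shRNA in the labels. The authors deposited the counts of reads per gene as whole numbers, not normalized. Per the submitters' processing notes, Trim Galore 0.4.1, TopHat2 2.1.1 and HTSeq were used with mm10/GRCm38. The paper's methods name featureCounts, but the layout of the files is that of htseq-count. The strand counted is not given in the sources used here. Reads outside of genes made up 21.5% to 24.1% of all counted reads and ambiguous reads 1.45% to 1.65%. Both were left out.

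Counts were scaled by upper-quartile normalization over all genes with edgeR 4.0.16 in R 4.3.3. Fold changes were taken from scaled reads without a pseudocount, with exact conditional (Clopper-Pearson) intervals of 95%, in Python 3.11.15 with scipy 1.17.1. Genes that averaged 10 reads or more were tested. A floor of 3 reads was used for counts of 0. With 1 library per condition, these calls compare libraries and not conditions. Both knockdowns together were tested against control by edgeR's quasi-likelihood method with TMM normalization and Benjamini-Hochberg adjustment over all genes tested, and with DESeq2 1.42.0 as an alternative. The scripts were tested on simulated data with 200 changed genes. Exon lengths and overlaps come from GENCODE M21 (23376 of 24421 genes matched by symbol), and positions and promoter windows from RefSeq GRCm38.p6.

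The members, the gene lists and the thresholds were chosen with earlier results of these data known. Values per library are given for every member called in any comparison, those of at least 10 RPKM in control, the 4 receptors, and Fgf4, Fgf5, Spry2, Spry4, Dusp6, Etv4 and Etv5. The other members are given by their reads. Of the other lists, the most abundant gene and genes called in both knockdowns are named, and further genes named there were chosen after their values were seen. Alternatives were DESeq2's size factors, TMM normalization, library totals, upper-quartile normalization over the tested genes alone, a pseudocount of 5 reads, minimum means of 1 and 100 reads, a fold change above 2 and a likelihood ratio test at an assumed dispersion of 0.04. Scaling by the summed pluripotent markers and the length of the longest transcript were added after seeing the data.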

Additional observations from a re-analysis of the deposited data

Results flagged for a closer look

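6 members had counting intervals that left out 0 in opposite directions in KD-1 and KD-2, both against the same control library. On the log2 scale, Fgf4 was at 0.19 for KD-1 and -0.52 for KD-2, and Etv5 was at 0.032 and -0.40. In the other direction, Fgf7 was at -0.37 for KD-1 and 0.60 for KD-2, Fgfr2 at -0.44 and 0.52, Spred1 at -0.20 and 0.092, and Etv4 at -0.12 and 0.17. Of these 12 values, only Fgf7 in KD-2 passed 1.5-fold. With 1 library per knockdown the difference in effect between the shRNAs was not tested. Beside them, the summed fibroblast markers were at -1.0 and 0.93 and the summed pluripotent markers at 0.14 and -0.43 in KD-1 and KD-2, and the part of either in these values was not tested.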

How the results depend on the processing

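With 1 library per condition, calls rest on counting error, and no library could be left out of a pairwise comparison. No paired analysis was possible because each condition has 1 library. The 2 members called in KD-1 became 1 at a minimum mean of 100 reads, where Fgf9 was not tested and 8.11% of all genes were called. The 4 members called in KD-2 became 7 with TMM normalization, 7 with upper-quartile normalization over the tested genes alone, 10 with library totals and 14 with scaling by pluripotent markers, while the share of all genes called went from 23.5% to 23.3%, 23.3%, 25.1% and 36.1% in the same order. The added calls in KD-2 with TMM normalization were Fgf1, Fgf14 and Dusp6. The 7 members called between KD-1 and KD-2 became 13 with scaling by pluripotent markers, where the share of all genes went from 27.1% to 38.8%. With a fold change above 2, KD-1 kept 2 and KD-2 and the comparison of KD-1 to KD-2 had 0, beside 4.17%, 6.68% and 10.7% of all genes. With the likelihood ratio test at an assumed dispersion of 0.04, all 3 comparisons had 0, beside 0.456%, 0.498% and 4.56% of all genes. The median of the adaptors and kinases in KD-1 moved from 0.01 to -0.055 with DESeq2's size factors. No called value of a member changed sign under any alternative run.

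The share of higher calls among all genes in KD-2 was 63.4%, and 84.9% with library totals, which moved the median of all genes by 0.16. It was 73.7% with upper-quartile normalization over the tested genes alone. For KD-1 against KD-2 it was 44.5%, and 30.1% with DESeq2's size factors and 22.9% with library totals. With scaling by pluripotent markers it was 97.0% in KD-2 and 2.98% for KD-1 against KD-2. In KD-1 it was 58.7%, 47.8% with DESeq2's size factors and 37.4% with scaling by pluripotent markers. Scaling by pluripotent markers moved the median of all genes by -0.14 for KD-1 and 0.43 for KD-2. It left Fgf15 in KD-2 at -0.32, no longer called, Fgf4 at -0.085 and Etv5 at 0.03. With the longest transcript in place of joined exons, Fgf4 held 64.5%, 70.3% and 50.4% of the ligand sum.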
